A study of Mus musculus with 12 samples.

Results

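The genes described here are 10 members of the insulin-like growth factor (IGF) system of the mouse, taken by symbol from a table of 55418 genes. They are the ligand genes Igf1 and Igf2, the receptor genes Igf1r and Igf2r, and the binding protein genes Igfbp2, Igfbp3, Igfbp4, Igfbp5, Igfbp6 and Igfbp7. They were read in single ScxGFP+ cells, in which a GFP transgene reports activity of Scx, a transcription factor of tendon cells, and which were picked by their fluorescence with a micromanipulator after uninjured Achilles tendons had been digested with collagenase. Libraries were made by Smart-Seq2, which reads along the whole transcript and tags no single molecules. There were 6 Tnmd-/- ScxGFP+ cells, which lack tenomodulin (Tnmd) constitutively in every tissue, and 6 Tnmd WT ScxGFP+ cells, all on a C57BL/6 background. Tnmd lies on the X chromosome, and by the study's methods its WT mice could be hemizygous males or homozygous or heterozygous females. The labels name no animal and no age for a cell, so each genotype counted as 1 sample, no test was made between genotypes, and cells are described by their values. Cells are named by the number in their label.

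IGF1 and IGF2 are secreted growth factors that drive growth, survival and matrix synthesis in connective tissues, tendon included. They signal through the receptor tyrosine kinase encoded by Igf1r, while Igf2r encodes the cation-independent mannose 6-phosphate receptor, which takes up IGF2 for breakdown and carries lysosomal enzymes. The secreted binding proteins hold IGFs in the extracellular space, where they prolong their life and either block or release them, and proteases such as pregnancy-associated plasma protein A (Pappa) free the ligand by cleaving them.

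A cell held between 892713 and 13613080 counts, and the sums were 35088506 for Tnmd-/- and 53439236 for WT. Levels are given as counts per 1000000 counts of the cell or of the summed cells (CPM). By counting error alone, a gene with 0 counts can lie at up to 3 counts. That is 0.220 CPM in the deepest cell and 3.36 CPM in the shallowest. Over the sums it is 0.0855 CPM for Tnmd-/- and 0.0561 CPM for WT. This floor does not cover transcripts that a cell held but its library did not capture. Mitochondrial genes took 51.8% of the counts in Tnmd-/- cell 3. As a check of the labels, Tnmd was read 8 times over all Tnmd-/- cells and 10185 times over all WT cells. Of the latter, 10178 lay in WT cell 14 and 7 in WT cell 2, so that 4 WT cells held none and Tnmd separates the genotypes only as sums. Scx was read 3 times over the Tnmd-/- cells, all in cell 7, and 2074 times over the WT cells. Of the latter, 1355 lay in WT cell 4, 544 in WT cell 10, 174 in WT cell 1 and 1 in WT cell 5. WT cells 2 and 14 held no Scx count. Of 11 tendon fibroblast markers 10 were counted, with Kera at 0. Their sum ran from 1684 to 87463 CPM per Tnmd-/- cell and from 30395 to 176923 CPM per WT cell. Dcn and Comp made up most of it. In Tnmd-/- cell 10, which had the highest Tnmd-/- sum, Dcn had 789143 counts and Comp 112093. That cell held 10 counts of Col1a2, 6 of Thbs4 and 0 of Scx and Col1a1. At 10 counts or more, Dcn, Comp and Col1a2 were read in all 12 cells, Scx and Mkx in 3 and Tnmd in 1. Red blood cell markers were at 0 and immune markers reached 0.871 CPM. The study marked 3 cells of each genotype as less degraded (Tnmd-/- cells 9, 10 and 20, WT cells 4, 5 and 10) and 3 as more degraded, as read by eye from the annotation bar over its heat map, since the labels do not give the level. The less degraded cells were also the 6 deepest, so degradation and depth cannot be told apart.

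The IGF system in these cells consisted mostly of binding protein reads. Igfbp6 was counted in every cell, Igfbp7 and Igfbp5 in 9 of 12 cells each, Igf1r and Igf2r in 7 of 12 each, Igf1 and Igfbp3 in a single cell each, and Igf2, Igfbp2 and Igfbp4 in none. In all, 7 of the 10 genes had a count, and 5 had at least 10 counts in a cell. Of 21991 protein-coding genes, 44.3% had at least 1 count, 37.2% had at least 20 counts over all cells, 38.5% had at least 10 in a cell, and 0.937% had at least 10 counts in all 12 cells, as Igfbp6 did. After a single random thinning of all cells to 892713 counts, Igfbp6 was still counted in 12 cells, Igfbp7 in 9, Igf2r in 7, and Igfbp5 and Igf1r in 6 each.

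**Figure D1:**
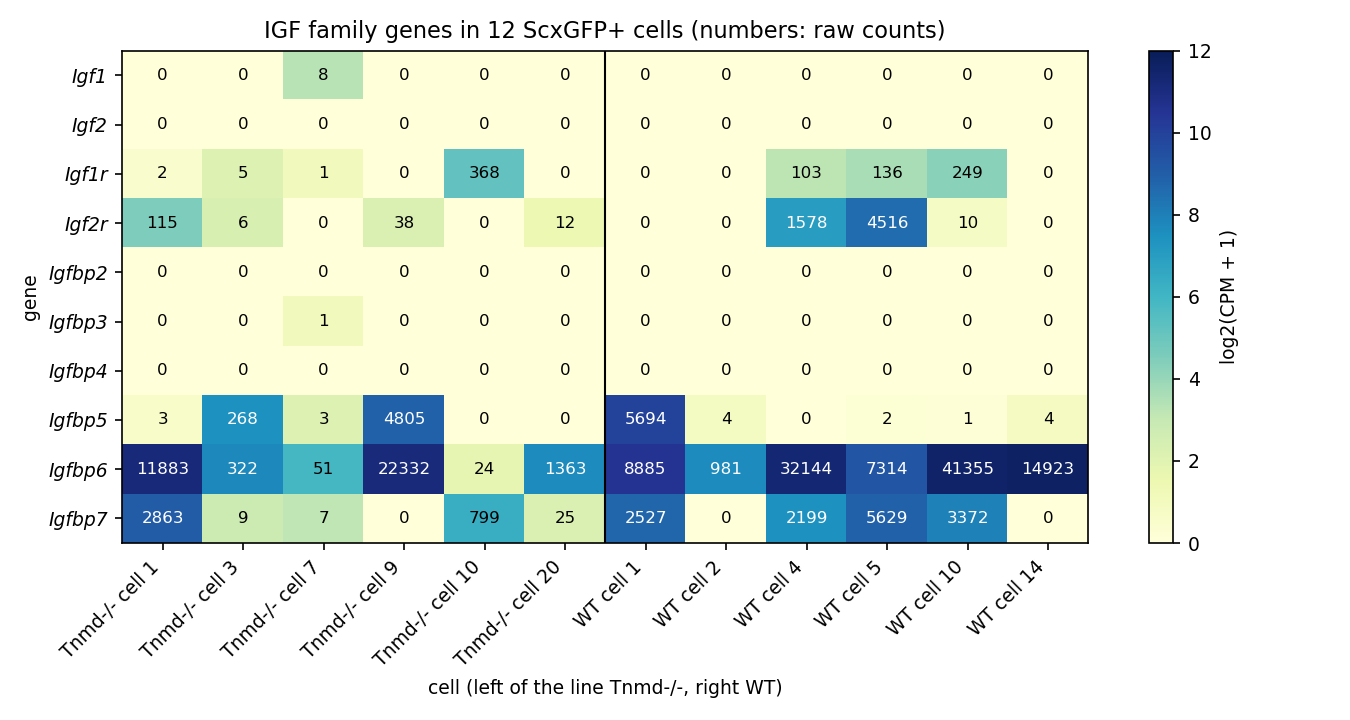
Colour gives log2(CPM + 1) of the 10 genes (rows) in the 12 cells (columns, Tnmd-/- left and WT right of the line), and the number in a field is the raw count. The row of Igfbp6 is filled in every cell with 24 to 41355 counts, whereas Igf2, Igfbp2 and Igfbp4 are 0 throughout.

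To compare the genes with each other, CPM was divided by the summed exon length in kilobases. By the median over 12 cells, Igfbp6 stood first with 940 CPM per kilobase (lowest 2.09, highest 2972). Igfbp7 followed with 35.3 CPM per kilobase (0 to 446). Next came Igf2r with 0.135 (0 to 40.4), Igfbp5 with 0.116 (0 to 158) and Igf1r with 0.0446 CPM per kilobase (0 to 2.13). The other 5 genes had a median of 0. The interquartile range of Igfbp6, from 183 to 2089 CPM per kilobase, overlapped that of Igfbp7, from 2.30 to 241. The ranges of Igf2r, Igfbp5 and Igf1r also overlapped, and by the mean in place of the median Igfbp5 with 22.2 stood above Igf2r with 4.78 CPM per kilobase, so the order of these 3 is not settled. Within single cells Igfbp6 ranked between 35 and 2993 among all genes by CPM and was among the first 100 in 6 of 12 cells. Igfbp7 ranked 357 at best, Igfbp5 206, Igf2r 470 and Igf1r 1953.

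The ligand genes were nearly unread. Igf1 (chromosome 10 of GRCm38, 87858265 to 87937042) had 8 counts, every one in Tnmd-/- cell 7, the shallowest cell, where they made 8.96 CPM. The 6 WT cells held none. Its level was 0.228 CPM over the Tnmd-/- sum (Poisson interval 0.0984 to 0.449). Over the WT sum it was at most 0.0561 CPM at the floor of 3 counts. This is at least 4.06-fold lower if the 8 Tnmd-/- counts are taken without their counting error. All of this rests on 1 of 12 cells. The same cell had the highest skeletal muscle marker sum, 6.72 CPM from 6 counts of Acta1 with the other 4 markers at 0, whose part in the Igf1 level was not tested. Igf2 (chromosome 7, 142650766 to 142666816) had 0 counts in all 12 cells. Of its exon bases, 64.5% are shared with Gm49394 on the same strand or with Igf2os on the opposite strand, and a read that falls in more than 1 gene may have been left uncounted. The remaining 2029 bases of Igf2 gave no count either. Gm49394 was also at 0, and Igf2os had 1 count, in Tnmd-/- cell 9.

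The IGF1 receptor gene was counted in 7 of 12 cells but reached 10 counts in 4. Igf1r (chromosome 7, 67952827 to 68233668) had 368 counts (35.7 CPM) in Tnmd-/- cell 10, and 5, 2 and 1 counts in Tnmd-/- cells 3, 1 and 7. It was at 0 in Tnmd-/- cells 9 and 20. In the WT cells it had 249 counts (18.3 CPM) in cell 10, 136 (11.3 CPM) in cell 5 and 103 (8.26 CPM) in cell 4. Cells 1, 2 and 14 held none. All 4 cells that reached 10 counts were less degraded ones, and no more degraded cell did. Over the 8170 protein-coding genes of 20 counts or more, 61.9% reached 10 counts in a larger number of less than of more degraded cells, and 1.98% reached it in 4 or more less degraded cells and in no more degraded cell. Igf1r reached 10 counts in 3 WT cells and 1 Tnmd-/- cell, and 43.1% of these genes did so in a larger number of WT than of Tnmd-/- cells. Thinned to the depth of the shallowest cell, Igf1r was counted in 4 of 6 less degraded and in 2 of 6 more degraded cells. It then reached 10 counts in 2 of 6 less degraded and in 0 of 6 more degraded cells. Pooled over cells, Igf1r was at 10.7 CPM for Tnmd-/- (9.66 to 11.9) against 9.13 CPM for WT (8.34 to 9.98), a log2 ratio, Tnmd-/- over WT, of 0.23 (counting interval 0.03 to 0.43). Tnmd-/- cell 10 alone supplied 97.9% of the Tnmd-/- counts, and leaving it out moved the ratio to -4.82. Leaving out WT cell 10 moved it to 0.84. With all cells kept, TMM factors gave -0.03 and the difference of mean log2(CPM + 1) was -0.37, so the pooled ratio has no stable sign. The highest Igf1r cell of each genotype was also the cell with the highest glial marker sum, 37.7 CPM in Tnmd-/- cell 10 and 173 CPM in WT cell 10, nearly all of it from S100b, with Sox10 at 0 in all cells. Elsewhere this sum was 0 to 2.24 CPM, and its part in the Igf1r level was not tested.

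Igf2r (chromosome 17, 12682406 to 12769664), the mannose 6-phosphate receptor gene, was high in a pair of WT cells. WT cell 5 held 4516 counts (375.7 CPM), WT cell 4 held 1578 (126.5 CPM) and WT cell 10 held 10 (0.735 CPM), and the 3 more degraded WT cells held none. In the Tnmd-/- cells there were 115 counts (21.7 CPM) in cell 1, 38 (3.68 CPM) in cell 9, 12 (1.78 CPM) in cell 20 and 6 (3.99 CPM) in cell 3. Cells 7 and 10 held none. Only WT cells 4 and 5 lay above the Tnmd-/- cells, while the other 4 WT cells lay within their range. Pooled, Igf2r was at 4.87 CPM for Tnmd-/- (4.17 to 5.66) against 114 CPM for WT (111 to 117), a log2 ratio of -4.55 (-4.78 to -4.33), or 23.4-fold higher in WT. Within the less degraded cells the ratio was -6.45. Within the more degraded cells, with 121 counts against 0, the direction turned and Igf2r was at least 80.2-fold higher in the Tnmd-/- cells, most of it from cell 1. Leaving out WT cell 5 gave -2.98 and leaving out Tnmd-/- cell 1 gave -5.92, and the difference of mean log2(CPM + 1) was -0.97. In WT cell 5 the summed mural cell markers were at 641 CPM, every count of it from Cspg4, with the defining mural genes Rgs5, Acta2, Myh11 and Kcnj8 at 0 in all cells. The mural sum was 44.7 CPM in WT cell 4, at most 118 CPM in a Tnmd-/- cell, and under 0.1 CPM in the other 4 WT cells, and its part in the Igf2r level was not tested.

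Igfbp6 (chromosome 15, 102144362 to 102149511), whose product prefers IGF2 over IGF1, carried 83.4% of all binding protein counts (83.2 to 83.6). In the Tnmd-/- cells its counts were 11883 in cell 1 (2238 CPM), 22332 in cell 9 (2161 CPM), 322 in cell 3 (214 CPM), 1363 in cell 20 (202 CPM), 51 in cell 7 (57.1 CPM) and 24 in cell 10 (2.33 CPM). In the WT cells they were 14923 in cell 14 (3304 CPM), 41355 in cell 10 (3038 CPM), 32144 in cell 4 (2577 CPM), 8885 in cell 1 (1483 CPM), 7314 in cell 5 (609 CPM) and 981 in cell 2 (203 CPM). The genotypes overlapped. A pair of Tnmd-/- cells stood at the level of the high WT cells, and WT cell 2 stood at the level of the median Tnmd-/- cell. The median cell was at 208 CPM for Tnmd-/- and at 2030 CPM for WT.

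Summed over cells, Igfbp6 was at 1025 CPM for Tnmd-/- (1015 to 1036) against 1976 CPM for WT (1964 to 1988). The pooled log2 ratio was -0.95 (-0.96 to -0.93), a 1.93-fold higher level in WT. The spread between cells was far larger than this, since Igfbp6 differed 961-fold between the highest and lowest Tnmd-/- cell and 16.3-fold between the highest and lowest WT cell. Within the less degraded cells the ratio was -1.29, and within the more degraded cells it was -0.02 (-0.06 to 0.01). Tnmd-/- cell 9 supplied 62.1% of the counts of its genotype, and its removal gave -1.84. Removal of Tnmd-/- cell 10, which held 24 Igfbp6 counts at 10304509 counts in all, gave -0.45. With cells weighted equally the ratio was -1.20, and the difference of mean log2(CPM + 1) was -2.81.

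**Figure D2:**
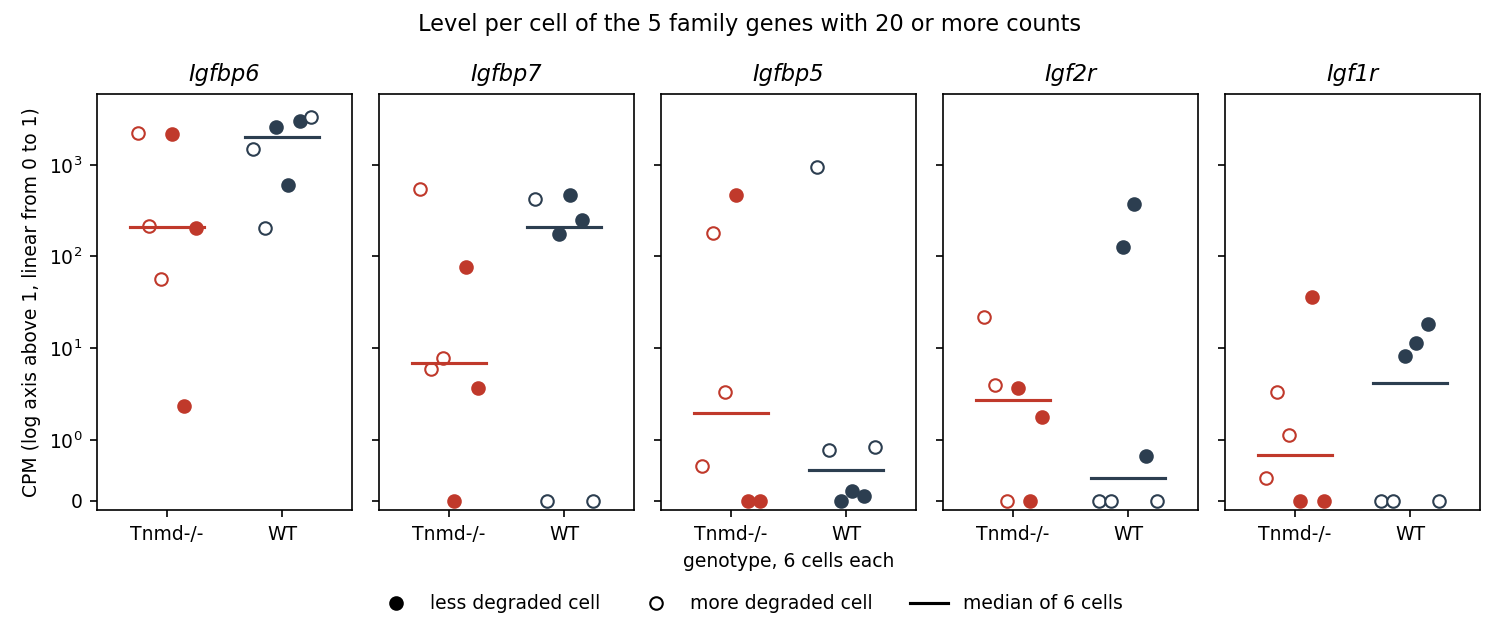
Each point is 1 cell, with CPM on an axis that is logarithmic above 1 and linear from 0 to 1, for the 5 most counted IGF genes. Bars mark the median of 6 cells and open points the more degraded cells. The Igfbp6 medians are 208 and 2030 CPM with overlapping points, and Igfbp5 is high in only 3 cells.

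Igfbp7 (chromosome 5, 77349240 to 77408041) encodes a secreted protein related to the IGF binding proteins that binds IGFs weakly and is abundant around blood vessels. It was counted in 5 of 6 Tnmd-/- and 4 of 6 WT cells, and at 10 or more counts in 3 and 4 cells. The WT cells split into a high and an empty set, with 468, 422, 248 and 176 CPM in cells 5, 1, 10 and 4, against 0 counts in cells 2 and 14. The Tnmd-/- cells were dominated by a single cell, with 539, 77.5, 7.84, 5.98 and 3.71 CPM in cells 1, 10, 7, 3 and 20 and 0 in cell 9. Among cells with a count the highest was 145-fold above the lowest in Tnmd-/- and 2.66-fold in WT. The range of the WT cells lay within that of the Tnmd-/- cells. Pooled, Igfbp7 was at 106 CPM for Tnmd-/- (102 to 109) against 257 CPM for WT (253 to 261), which is a log2 ratio of -1.28 (-1.34 to -1.23). Tnmd-/- cell 1 supplied 77.3% of the counts of its genotype and its removal gave -3.19, while removal of Tnmd-/- cell 9, which held none, gave -0.78. Among less degraded cells the ratio was -3.29, and among more degraded cells the direction turned, with 1.18 (1.10 to 1.26). Of its exon bases, 7.03% overlap Polr2b on the opposite strand, which was read 18 times for Tnmd-/- and 2757 times for WT.

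Tnmd-/- cell 1, the cell with the most Igfbp7, was also the cell with the most endothelial marker reads. These markers summed to 30.9 CPM there, 160 of 164 counts coming from Pecam1, and to at most 1.99 CPM in any other Tnmd-/- cell and at most 0.220 CPM in any WT cell. Of 7 endothelial markers, 4 were counted and Cdh5, Emcn and Egfl7 were at 0 in all cells. The 4 WT cells with high Igfbp7 had endothelial sums of 0 to 0.220 CPM. The part of endothelial RNA in the level of Tnmd-/- cell 1 was not tested.

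Igfbp5 (chromosome 1, 72857932 to 72874884), a binding protein that attaches to extracellular matrix, was either abundant or close to absent. WT cell 1 held 5694 counts (950 CPM), Tnmd-/- cell 9 held 4805 (465 CPM) and Tnmd-/- cell 3 held 268 (178 CPM). In the other 9 cells it had 0 to 4 counts. Both genotypes and both degradation levels were among the 3 high cells. Pooled, Igfbp5 was at 145 CPM for Tnmd-/- (141 to 149) against 107 CPM for WT (104 to 110), a log2 ratio of 0.44 (0.38 to 0.49). A single cell gave 94.6% of the Tnmd-/- counts and 99.8% of the WT counts. Leaving out WT cell 1 gave 9.29, leaving out Tnmd-/- cell 9 gave -3.27, and equal weights for all cells gave -0.56, so its sign rested on single cells. Among less degraded cells, with 4805 counts against 3, the ratio was 11.12 (9.57 to 13.40), and among more degraded cells, with 274 against 5702, it was -3.39 (-3.57 to -3.21). In Tnmd-/- cell 3 the adipocyte markers summed to 922 CPM, every count of it from Fabp4, with Adipoq, Plin1 and Cidec at 0 in that cell. Their part in its Igfbp5 level was not tested, and the other high Igfbp5 cells had 0 adipocyte marker counts. Cartilage markers, of which only Sox9 and Acan were counted and Col2a1 was at 0, summed to 1330 CPM in Tnmd-/- cell 9 and 253 CPM in WT cell 1, the highest values of each genotype, to 0 in Tnmd-/- cell 3 and to 1084 CPM in Tnmd-/- cell 10, a cell without Igfbp5. In WT cell 2, with 4 Igfbp5 counts, the cartilage markers summed to 236 CPM. Their part in the Igfbp5 level was not tested.

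The neighbour of Igfbp5 on chromosome 1, Igfbp2 (72824503 to 72852474), had 0 counts in all 12 cells, and so had Igfbp4 (chromosome 11, 99041244 to 99054392). Neither shares exon bases with another gene. Of protein-coding genes, 55.7% had 0 counts in all cells. Igfbp3 (chromosome 11, 7206086 to 7213923), the main carrier of IGFs in blood, had 1 count, in Tnmd-/- cell 7. At the summed depth of both genotypes, 0 counts allow up to 0.0339 CPM by counting error alone.

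The mixture of binding protein reads differed from cell to cell. The shares given here are of read counts, not divided by exon length, so a longer gene weighs more. Exon length is 6006 bases for Igfbp5, 1112 for Igfbp6 and 1209 for Igfbp7. Igfbp6 made up most binding protein counts in 11 of 12 cells, from 51.9% in WT cell 1 to nearly all in WT cell 14, where 4 of 14927 counts were not Igfbp6 (Clopper-Pearson interval of the share 99.93 to 99.99%). In Tnmd-/- cell 10 it made up 2.92% (1.88 to 4.31) and Igfbp7 97.1% (95.7 to 98.1). Igfbp5 took 44.7% in Tnmd-/- cell 3 (40.7 to 48.8), 33.3% in WT cell 1 (32.6 to 34.0) and 17.7% in Tnmd-/- cell 9 (17.3 to 18.2), and under 5% elsewhere. Per kilobase, Igfbp5 was at 29.7 CPM against 192 for Igfbp6 in Tnmd-/- cell 3. In WT cell 1 it was at 158 against 1334, and in Tnmd-/- cell 9 at 77.4 against 1944 CPM per kilobase. Igfbp7 took 43.5% in WT cell 5 (42.6 to 44.3) and 19.4% in Tnmd-/- cell 1. Pooled, the shares of Igfbp5, Igfbp6 and Igfbp7 were 11.3%, 80.4% and 8.27% for Tnmd-/- and 4.56%, 84.5% and 10.98% for WT. The sum of the 6 binding proteins ran from 69.5 to 2777 CPM in the Tnmd-/- cells (median 302) and from 204 to 3305 CPM in the WT cells (median 2804).

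**Figure D3:**
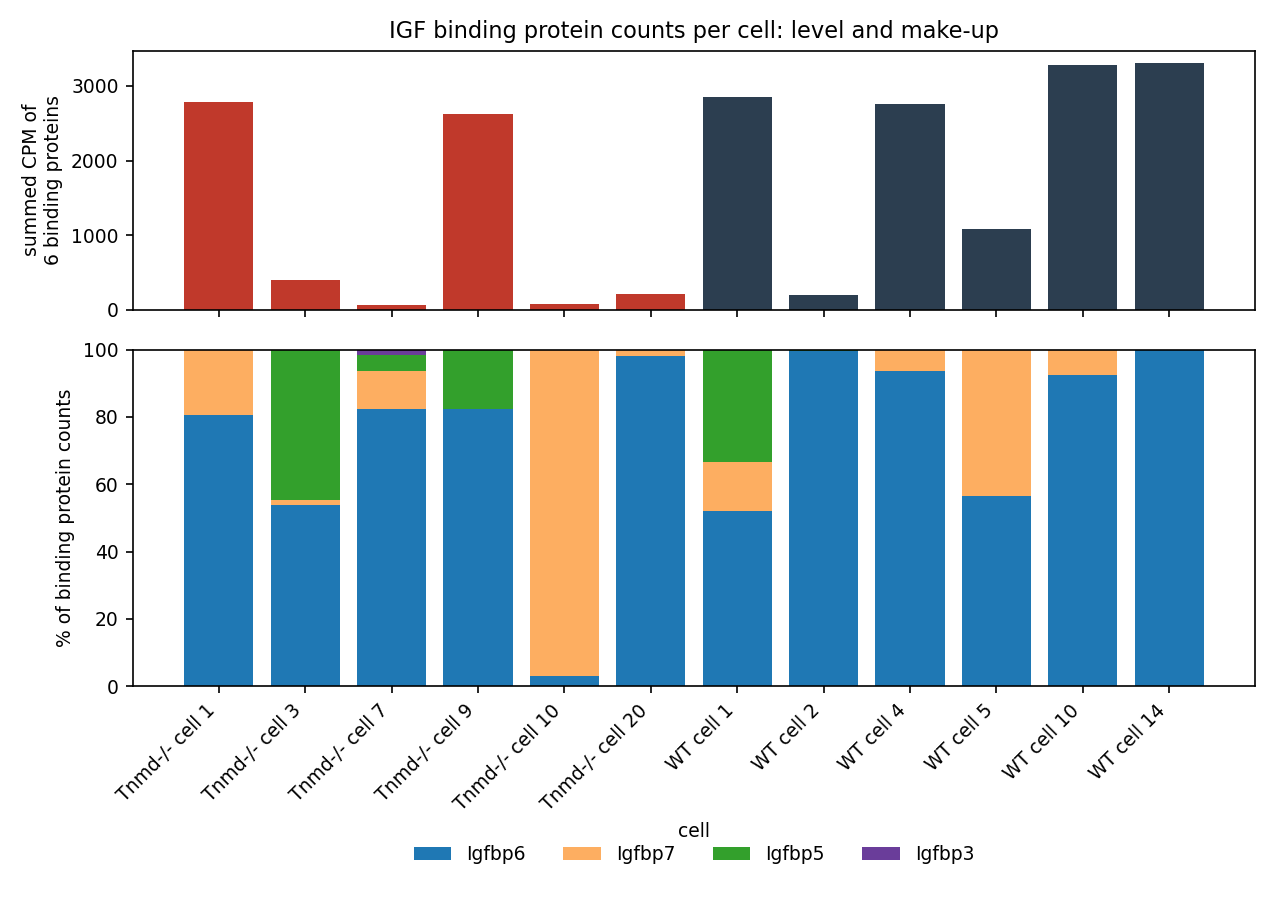
The upper bars give the summed CPM of the 6 binding protein genes in each cell (red Tnmd-/-, dark blue WT) and the lower bars the percent of these counts from each gene. Tnmd-/- cell 10 is made up of 97.1% Igfbp7, while Igfbp6 makes up most of the counts in the other 11 cells.

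Of 55418 genes, 9768 had 20 counts or more over the 12 cells, and 5 of the 10 IGF genes were among them. A gene was called when its pooled levels, each with 1 CPM added, differed by at least 2-fold. By this rule 70.4% of the 9768 genes were called, 34.9% of all as lower and 35.5% as higher in the Tnmd-/- cells. Of the 5 IGF genes 2 were lower (Igf2r and Igfbp7), none was higher, and 3 were not past 2-fold. The share of 40% lower was close to that of all genes, and it says nothing particular about the IGF genes. Their median log2 ratio was -0.95, against 0.06 over all genes tested. All 5 also had at least 100 counts, as had 8349 genes, of which 75.6% were called, 39.2% as lower and 36.4% as higher. Within the less degraded cells 3 were lower (Igf2r, Igfbp6 and Igfbp7) and 1 was higher (Igfbp5), where 59.5% of all genes were called, 31.2% as lower and 28.3% as higher. Within the more degraded cells 1 was lower (Igfbp5) and 3 were higher (Igf2r, Igfbp7 and, with 8 counts against 0, Igf1r), where 55.1% of all genes were called, 25.6% as lower and 29.6% as higher. Igf2r, Igfbp5 and Igfbp7 were thus past 2-fold in opposite directions in the less and the more degraded cells, as were 12.9% of the 9768 genes. With 3 cells per genotype and level, the difference between the levels was not tested.

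**Figure D4:**
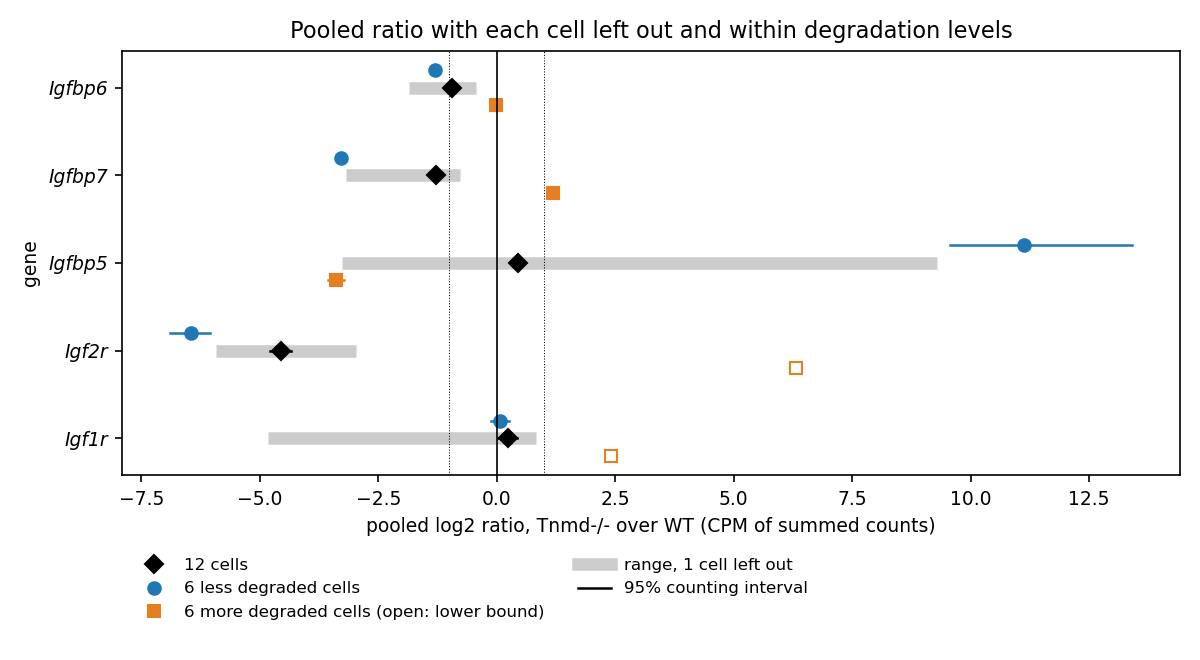
Points give the pooled log2 ratio, Tnmd-/- over WT, of the 5 most counted IGF genes, in the 12 cells and within each degradation level, thin lines its 95% counting interval, and grey bands the range with 1 cell left out. Dotted lines mark 2-fold and open squares are lower bounds. The band of Igfbp5 runs from -3.27 to 9.29, and the ratio of Igf2r is -6.45 in the less degraded cells and at least 6.33 in the more degraded cells.

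A cell held between 1 and 4 IGF genes at 10 counts or more, and the 3 less degraded WT cells held 4 each. Igfbp6 with at least 10 counts was found beside Igfbp7 in 7 cells, beside Igf2r in 6, beside Igf1r in 4 and beside Igfbp5 in 3. Every cell with at least 10 Igf1r counts also had at least 10 Igfbp7 counts, and no cell had at least 10 counts of both Igf1r and Igfbp5. Igf1r and Igf2r were both at 10 or more counts in WT cells 4, 5 and 10, and in no Tnmd-/- cell. These were the deepest of the 12 cells (12019550 to 13613080 counts), and WT cell 10 held exactly 10 Igf2r counts. Thinned to 892713 counts, Igf1r reached 10 counts in 1 WT and 1 Tnmd-/- cell. Igf2r then reached it in 2 WT cells and 1 Tnmd-/- cell. Spearman correlations of CPM over the 12 cells were 0.14 for Igfbp6 with Igfbp7, 0.28 for Igfbp6 with Igf2r and 0.42 for Igfbp7 with Igf2r. These points share library depth and degradation. Among 1834 other genes that reached 10 counts in 6 cells or more, profiles most like that of Igfbp6 were those of Mtdh (0.82) and Cdc42bpa (0.77). For Igfbp7 these were Srpk2 (0.90), Dynlrb1 (0.89) and Gstm1 (0.89), and for Igf2r they were Camk1d (0.88), Gm13680 (0.85) and Nucks1 (0.85). The highest values out of 1834 are high in part through the choice, and they are given as a description.

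Of the genes that act on binding proteins, Htra1, a secreted serine protease that cleaves them, was read in all 12 cells. It was read 14385 times for Tnmd-/- (410 CPM) and 26652 times for WT (499 CPM), a pooled log2 ratio of -0.28 (-0.31 to -0.25). Single cells ran from 0.665 CPM in Tnmd-/- cell 3 to 1304 CPM in Tnmd-/- cell 1, and from 0.829 CPM in WT cell 2 to 975 CPM in WT cell 14. Pappa, which cleaves IGFBP4 and IGFBP5, had 3776 of its 3779 WT counts in WT cell 10 (277 CPM), a cell with 1 Igfbp5 count, and 4 counts in the Tnmd-/- cells. Its relative Pappa2 had 6 counts, all in Tnmd-/- cell 10. The stanniocalcins Stc1 and Stc2, which inhibit these proteases, were at 0. So were Igfals, which encodes the acid labile subunit of circulating IGF complexes, Igfbp1, Igfbpl1, the Igf2 neighbour H19 and the insulin receptor gene Insr. Irs2, an adaptor downstream of the insulin and IGF1 receptors, had 2303 counts in Tnmd-/- cell 9 and 1402 in Tnmd-/- cell 10, 9 in Tnmd-/- cell 1 and 2 in the WT cells. Irs1 had 1 count.

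A list of 67 other genes of the IGF and insulin pathway was also read, from carriers and adaptors to the Ras, PI3 kinase and mTOR branches. Of these, 43 had at least 20 counts, of which 19 (44.2%) were past 2-fold higher and 18 (41.9%) past 2-fold lower in the Tnmd-/- cells and 6 were neither, beside 35.5% and 34.9% of all genes. The median log2 ratio of the 43 was 0.53, against 0.06 over all genes. Without Tnmd-/- cell 9 the number past 2-fold higher was 12. Named are genes from the 3 highest and 3 lowest ratios, ranked with 1 CPM added, among those that reached 10 counts in 3 cells of the higher genotype. Highest were Nras, a small GTPase, with 4046 Tnmd-/- against 9 WT counts (log2 ratio 9.42), Pik3ca, the catalytic PI3 kinase subunit, with 2796 against 193 (4.46), and Akt1, a kinase below it, with 1974 against 606 (2.31). Among the lowest were Adam9, a membrane protease, with 9 against 3626 counts (-8.05), and Rictor, a subunit of mTOR complex 2, with 231 against 4190 (-3.57). These ratios also rested on few cells. Tnmd-/- cell 1 supplied 98.8% of the Pik3ca counts of its genotype, and leaving it out turned the ratio to -1.70, while among less degraded cells it was -1.90. WT cell 1 supplied 87.6% of the WT counts of Adam9 and WT cell 2 78.2% of those of Rictor. With single cells left out in turn, the ratio of Adam9 ran from -10.71 (Tnmd-/- cell 9 out) to -5.21 (WT cell 1 out) and that of Rictor from -5.66 (Tnmd-/- cell 7 out) to -1.51 (WT cell 2 out). For Nras it ran from 8.51 (Tnmd-/- cell 3 out) to 11.21 (WT cell 4 out). For Akt1 it ran from 1.72 (Tnmd-/- cell 20 out) to 2.99 (WT cell 5 out). The highest value of Pik3ca was 6.04 (WT cell 2 out). Leaving out single cells cannot show a ratio carried by a pair. Nras had 1987 counts in Tnmd-/- cell 3 and 1944 in Tnmd-/- cell 1, both more degraded, and 0 in Tnmd-/- cells 7, 9 and 10. Its ratio was 12.93 in the more and 4.32 in the less degraded cells. Akt1 had 1023 counts in Tnmd-/- cell 9 and 915 in Tnmd-/- cell 20. Its ratio was 3.58 in the more and 2.17 in the less degraded cells.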

How the data were processed

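Raw counts of 12 single cells were used, 6 Tnmd-/- ScxGFP+ and 6 WT ScxGFP+, grouped by their labels. The deposited values are raw read counts per gene and cell that the authors obtained by trimming reads, filtering them against contaminant genomes, aligning with STAR 2.5.1b to GRCm38 and counting unique exonic reads with featureCounts of Subread 2.0.0. Strand use in counting is not given in the sources used here. The exon length of each gene, a column outside the count units, was taken from the same table and equalled that of GENCODE M21 for all 10 genes.

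Counts were divided by the cell's total, or the genotype's summed total, times 1000000 (CPM). Intervals at 95% are exact Poisson for sums and exact Clopper-Pearson for shares and ratios. They and the floor of 3 counts cover counting error of reads only. Reads amplified without unique tags can stem from the same molecule, so the intervals are too narrow for counts of molecules. Where one sum was 0 the ratio is a bound, with 3 counts in its place and the other sum taken without its counting error. None is given when neither sum exceeded 3 counts. With 1 sample per genotype no p-value was computed. Degradation levels were read by eye from the annotation bar of the study's heat map and are not in the labels, so every value within a level rests on that reading.

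The genes, the pathway and marker lists and the rules were chosen with earlier results of these data known. Named are the 10 genes, Tnmd, Scx, 12 pathway genes tied to binding proteins, receptors or neighbouring loci, the 3 highest and 3 lowest pathway ratios among genes that reached 10 counts in 3 cells of the higher genotype, and the 3 profiles most like a gene read at 10 counts in at least 6 cells. Some items that this rule or the marker lists would name are not reported here. Marker genes stand beside the results they accompany, and Gm49394, Igf2os and Polr2b are named because they share exon bases. The alternatives were equal cell weights, mean log2(CPM + 1), TMM factors (edgeR 4.0.16), size factors (DESeq2 1.42.0), totals without 37 mitochondrial genes and the 50 most counted genes, each degradation level, each cell left out, 5 CPM added, a minimum of 100 counts, a detection limit of 10 counts and thinning to 892713 counts. Leaving out both Tnmd-/- cells under 2000000 counts was added after seeing the data. R 4.3.3 and Python 3.11.15 were used (scipy 1.17.1, pandas 2.3.3, numpy 2.4.6). The ratio and its interval were tried on simulated Poisson counts without spread between cells of a genotype. That trial checks the calculation for counting error only and cannot show how the intervals behave with the spread seen here. No 2 cells held identical counts.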

Additional observations from a re-analysis of the deposited data

Results flagged for a closer look

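In 12 sets of 6 cells with any count of a gene, 7 held a cell whose distance from the nearest other cell took up more of the whole range than a limit that chance passes in about 1 in 20 sets of normally spread values. That rate does not hold for counts that are mostly 0, where 5 cells at 0 put any other cell past the limit, and cells of 1 genotype are not replicates, so these are values and not a test. In the Tnmd-/- cells these were Igf1 and Igfbp3 in cell 7 (8.96 CPM from 8 counts and 1.12 CPM from 1 count, the latter under the floor of 3.36 CPM of that cell, with 0 in the other 5 cells), Igf1r in cell 10 (35.7 CPM, next 3.32), Igf2r in cell 1 (21.7 CPM, next 3.99) and Igfbp7 in cell 1 (539 CPM, next 77.5). In the WT cells they were Igf2r in cell 5 (375.7 CPM, next 126.5) and Igfbp5 in cell 1 (950 CPM, next 0.886). Igfbp6 gave no such cell in either genotype.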

How the results depend on the processing

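The number of IGF genes past 2-fold and higher in the Tnmd-/- cells, 0 over all cells, was 1 by mean log2(CPM + 1) and among less degraded cells alone, 3 among more degraded cells alone, and 0 to 1 with a cell left out (1 without WT cell 1). The number past 2-fold and lower, 2 over all cells, was 1 within the more degraded cells and 1 to 3 with a cell left out (1 without Tnmd-/- cell 20). It was 3 with equal weights, with TMM factors and among less degraded cells, where Igfbp6 was also past 2-fold. The log2 ratio of Igfbp6 was -0.95 over all cells, -1.20 with equal weights and -1.20 with TMM factors. The pathway numbers, 19 higher and 18 lower, were 12 to 21 and 13 to 18 with a cell left out. Within the more degraded cells Igf2r turned from -4.55 to at least 6.33, Igfbp7 from -1.28 to 1.18 and Igfbp5, not past 2-fold over all cells, from 0.44 to -3.39. The cause was not tested. Of all summary values over the gene lists under an alternative, 95 were within 1.5 times the reported ones and 7 were not. Those without both shallow Tnmd-/- cells were among the 95. A step from 2 genes to 3 counts as within 1.5 times, and these numbers do not show whether the genes stayed the same. Without Tnmd-/- cell 9, 3 genes were past 2-fold lower, and Igfbp7 with -0.78 was not among them. Single genes were less stable. Of their ratios and numbers of cells under an alternative, 48 stayed close to the reported value and 87 moved beyond its counting interval or 1.5 times. The other 2, Igf2r and Igfbp7 in the more degraded cells, turned from past 2-fold lower to past 2-fold higher. Among the 87 were changes of sign of Igf1r and Igfbp5, which were not past 2-fold over all cells. With 10 counts required, Igfbp5 was seen in 3 cells in place of 9, Igf1r in 4 in place of 7, and Igf1 and Igfbp3 in 0 in place of 1. No paired analysis was possible because the result comes from no test and the shared cell numbers name no common animal. Statements on Igf1, Igf2, Igfbp2, Igfbp3 and Igfbp4 reach no lower than the floors given. Those floors cover counting error only, and loss of transcripts before sequencing was not tested.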

Other observations

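Airn, the noncoding RNA transcribed across Igf2r on the opposite strand, was looked up after the values of Igf2r were seen. It had 152 counts, all of them in Tnmd-/- cell 20, which held 12 Igf2r counts. It shares no exon base with Igf2r, and no other cell held a count of Airn.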
